A study of Homo sapiens with 6 samples.

Results

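Mitochondrial ribosomal protein genes are described here in the RNA-seq libraries labelled control of a small cell lung cancer study. They are the genes of the deposited table whose symbol is MRPL or MRPS followed by a number and at most the letter A, B or C, and 78 of its 17170 genes met this rule, 49 of the large subunit (MRPL) and 29 of the small subunit (MRPS). The labels describe 6 samples of NCI-H69, a widely used cell line from small cell lung cancer. By the labels, stable CRISPR/Cas9 knockout of SCRMP, with guides against its coding sequence at the MIR7-3HG locus, gave 3 of them. A non-targeting guide RNA gave the 3 controls, which by that account also went through guide delivery. The labels do not say whether either line is a single clone. Of the 3 column names that the labels state for knockout samples, 0 were found in the table, so knockout levels are not analysed here and no difference between genotypes was computed. The values below are levels in the 3 control libraries, which held 20941185, 22309228 and 22477571 estimated reads in replicates 1, 2 and 3.

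Mitochondria translate the few messages of their own genome on a separate ribosome. Its ribosomal RNAs are made inside the organelle, whereas all of its proteins are encoded in the nucleus, made in the cytosol and imported. Some of these proteins have counterparts in bacterial ribosomes, and others occur only in mitochondria. The products are core subunits of the respiratory chain and the ATP synthase, so loss of a mitochondrial ribosomal protein commonly shows as a defect of respiration.

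The libraries did not carry the marker pattern of the labelled cell type, and whether they come from that line was not tested. Of 6 neuroendocrine markers 1 was detected (NCAM1, 25.7 TPM ± 3.66), where detected means that no library was under 1 TPM, and the others lay under 1 TPM on average. The summed level of the 6 was 23.2 to 30.6 TPM. Of 4 epithelial markers 1 was detected (KRT8, 3.04 TPM ± 0.257), whereas all 5 mesenchymal markers were, with a summed level of 6158 to 6201 TPM. The leukocyte marker PTPRC and the endothelial marker PECAM1 were not detected. TPM, short for transcripts per 1000000, are levels corrected for gene length and scaled to the same total in each library, and errors are SDs over the 3 libraries (n = 3) unless stated.

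All 78 mitochondrial ribosomal protein genes were detected, against 66.5% of the genes of the table. On average over the libraries, 77 of the 78 (98.7%) had 10 TPM or more, against 44.1% of all genes, and 43 (55.1%) had 100 TPM or more, against 8.25% of all genes. Their median level was 102.3, 107.1 and 108.0 TPM in replicates 1, 2 and 3, against 7.34, 6.72 and 6.44 TPM for all genes. Together the members held 8651, 8727 and 8867 TPM, or 0.875% of all TPM. The levels were close to each other for most members: the quartiles were 65.7 and 138 TPM, and 56 of the 78 lay within 2-fold of the median member, with 17 below that range and 5 above it. The members lie on 21 chromosomes, with 8 each on chromosomes 1, 2 and 17.

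Genes of the large subunit were at higher levels than genes of the small subunit. The median over the 49 large subunit genes was 123.4, 127.1 and 128.3 TPM in replicates 1, 2 and 3, against 76.1, 71.4 and 72.8 TPM over the 29 small subunit genes. The ranges of these medians over libraries did not overlap. On the log2(TPM + 1) scale the large minus small difference was 0.77 ± 0.07. At least 100 TPM was reached by 33 of 49 large subunit genes and by 10 of 29 small subunit genes. The genes themselves overlapped widely, since 11 large subunit genes lay below the small subunit median and 4 small subunit genes above the large subunit median. No test was made between the subunits, because genes of the same libraries are not replicates.

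The difference between subunits depended on how gene length entered. Dividing the reads of a gene by its FPKM gives the length with which the table was scaled, and this implied length had a median of 1034 bases for large subunit genes and of 1413 bases for small subunit genes. Estimated reads, which are not divided by length, had medians of 1464 ± 45.8 for the large and 1424 ± 3.42 for the small subunit after scaling to equal totals, and the log2 difference was then 0.04 ± 0.05. With reads divided by the coding length alone, the difference was 0.32 ± 0.12. With reads divided by the shortest transcript that GENCODE v29 marks as principal, it was 0.68 ± 0.11. Coding lengths were similar, with medians of 576 and 588 bases for the large and small subunit.

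**Figure D1:**
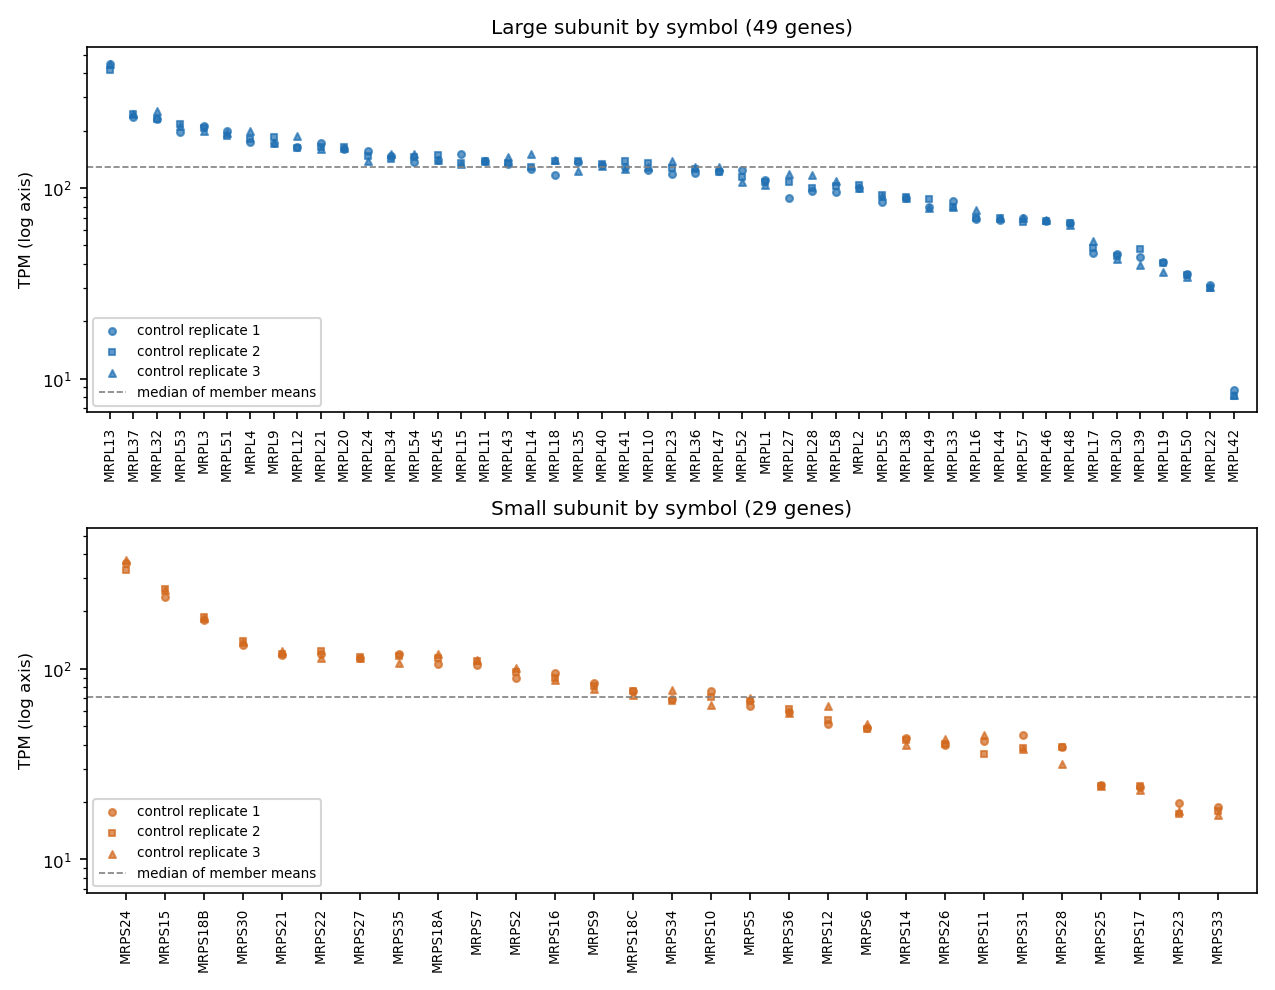
TPM (log axis) of each mitochondrial ribosomal protein gene in the 3 control libraries (1 symbol per library), large subunit above and small subunit below, ordered by mean level, with the median of the member means as a dashed line. MRPL13 and MRPL42 stand apart from the other large subunit genes, and the small subunit spans 17.9 to 354 TPM.

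By the place of the protein in the ribosome rather than by symbol, some names mislead. MRPS30 and MRPS18A are named for the small subunit but sit in the large one, and MRPS36 is now regarded as part of the alpha-ketoglutarate dehydrogenase complex, under the RefSeq symbol KGD4. MRPS30 had 132.7, 139.6 and 137.9 TPM and MRPS18A 105.6, 114.2 and 119.5 TPM, both above the small subunit median in every library. MRPS36 had 59.1, 61.5 and 58.7 TPM, below it in every library. With these genes moved or left out, the median was 126 ± 2.56 TPM over 51 large and 71.3 ± 1.51 TPM over 26 small subunit genes. The log2 difference was 0.82, close to that by symbol.

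In the large subunit, MRPL13 and MRPL42 were the members that lay more than 1.5 interquartile ranges outside the quartiles of their subunit, on average and in each library. MRPL22, at 30.5 TPM on average, lay below the lower limit of 33.7 TPM on average and in replicate 2 (30.0 TPM, against a limit of 31.8 TPM), but not in replicates 1 and 3. Its implied length was 3117 bases, with 1203 reads on average. Relative to the median member (log2), MRPL22 lay at -1.76 with TPM and at -0.28 with estimated reads. MRPL13, the counterpart of bacterial protein L13, had 449.85, 415.1 and 446.1 TPM, 4.12 times the median member. Its lowest library stood above the highest library of every other member, and it was ranked 274 among all genes. MRPL13 is at chromosome 8, 120395437 to 120445150 (GRCh38.p14). The 30 nearest measured genes, 15 on each side, had a median level of 38.3 TPM, higher than around any other member and at percentile 99.7 of all placed genes. The other members on chromosome 8, MRPL15 and MRPS28, had 141 TPM ± 9.16 and 36.5 TPM ± 4.29, with medians of 16.8 and 8.85 TPM for their neighbours.

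MRPL42, a protein found only in mitochondrial ribosomes, was listed at 8.71, 8.14 and 8.18 TPM, the lowest of all 78 members and below every library of every other member. Its number of reads was not low, at 1635 per library on average against a median of 1476 over the members. The implied length of MRPL42 was 15516 bases, near the longest principal transcript in GENCODE v29 (15582 bases), whereas the shortest principal transcript has 920 bases. With reads divided by that shortest transcript, MRPL42 came to 143 on a scale with the same total as TPM, above the median member. Which of these transcripts the reads came from was not tested. MRPL42 lies at chromosome 12, 93467514 to 93516214 (GRCh38.p14), and RefSeq lists 6 pseudogenes named after it.

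Other low members had long transcripts as well. MRPS33 (18.9, 17.9 and 17.1 TPM) had an implied length of 4171 bases, between principal transcripts of 688 and 4241 bases, and came to 110.5 on that scale with the shorter one. MRPL19, a protein at the interface of the subunits in bacterial ribosomes, had 40.8, 40.4 and 36.4 TPM from 3853 reads on average, the fifth highest read number of all members. Its implied length of 7776 bases exceeded its longest principal transcript in GENCODE v29 (3479 bases). Reads per shortest principal transcript gave 288 for MRPL19. Principal transcripts that differ more than 2-fold in length were found for 4 members, MRPL42, MRPS33, MRPL19 and MRPL55. Not all low members came with such a choice: MRPS23 (19.7, 17.4 and 17.9 TPM) and MRPS25 (24.6, 24.2 and 24.4 TPM) each have a single principal length of 5621 and 4586 bases, and these matched their implied lengths within 20%.

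**Figure D2:**
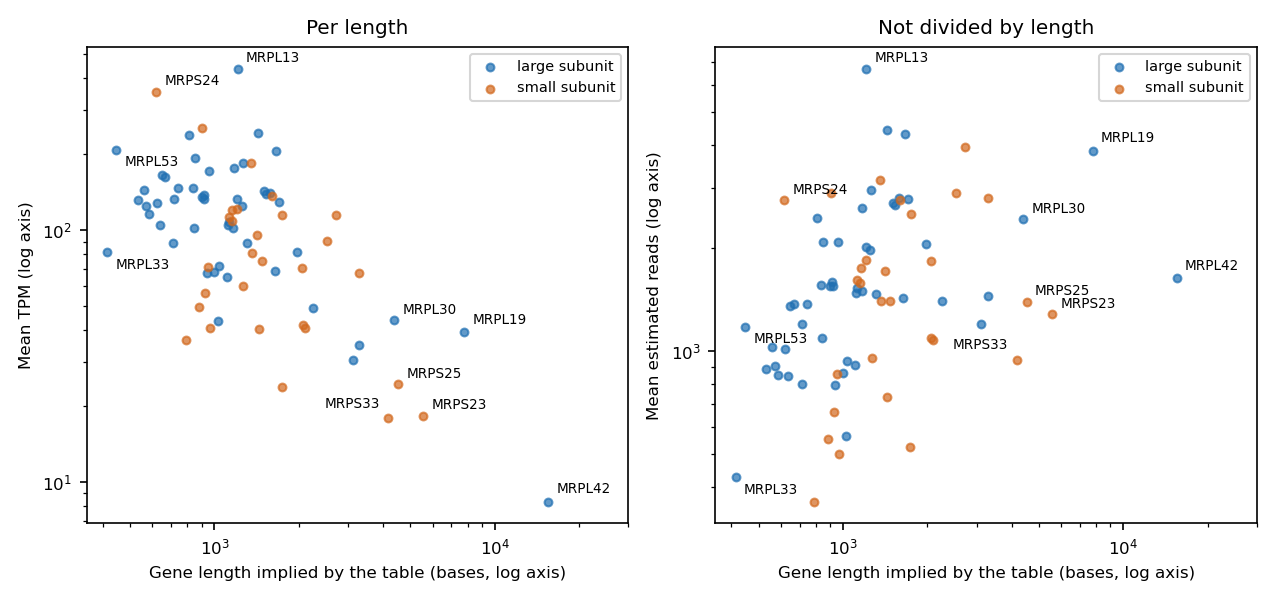
Mean TPM (left, log axis) and mean estimated reads (right, log axis) of the 78 members against the gene length implied by the table (log axis), large subunit in blue and small subunit in orange. Because TPM are divided by this length, a downward slope on the left is partly built in; MRPL42 is lowest on the left and near the middle on the right, whereas MRPL13 is highest in both.

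Above the median, the large subunit was led after MRPL13 by proteins of different roles. MRPL37, specific to mitochondria, had 237.1, 245.9 and 245.9 TPM. MRPL32, which an inner membrane protease trims after import, had 231.0, 231.2 and 254.2 TPM. MRPL53, also specific to mitochondria, had 197.4, 215.6 and 212.4 TPM. MRPL3, which reaches toward the peptidyl transferase centre, had 210.8, 207.2 and 199.3 TPM. Apart from the gap between MRPL32 and MRPL53, neighbours in this order overlapped in their libraries. MRPL53 had a short implied length of 447 bases, and by its number of reads it lay below the median member.

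Proteins of the stalk and exit tunnel, then others of the large subunit, follow as examples chosen after their values were seen. MRPL12, present in several copies in the stalk that recruits translation factors, had 164.9, 161.7 and 187.0 TPM, and MRPL10, which anchors it, 123.9, 134.7 and 129.3 TPM. MRPL45, at the tunnel exit facing the inner membrane, had 140.4, 148.8 and 139.7 TPM. MRPL22, which lines the exit tunnel, had 31.1, 30.0 and 30.4 TPM, below the libraries of all members of the large subunit but MRPL42. MRPL58, a peptidyl-tRNA hydrolase that is also part of the subunit, had 95.2, 102.2 and 108.4 TPM. MRPL50 (35.6, 34.8 and 34.0 TPM), MRPL39 (43.4, 47.7 and 39.6 TPM) and MRPL19 completed the 5 lowest of the large subunit.

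Proteins at the catalytic core and at the top of the large subunit lay on both sides of its median. MRPL2, close to the peptidyl transferase centre, had 100.3, 104.2 and 99.9 TPM, and MRPL16, which also lies near it, 68.99, 69.7 and 76.3 TPM. MRPL1, the protein of the mobile stalk that guides spent transfer RNA out, had 110.8, 107.3 and 104.0 TPM. In the central protuberance, the crest of the subunit, MRPL18 had 117.8, 139.5 and 141.2 TPM and MRPL40 132.2, 134.4 and 130.2 TPM. MRPL38 (88.9, 89.3 and 88.4 TPM), MRPL46 (67.1, 66.9 and 67.8 TPM) and MRPL48 (65.9, 65.6 and 64.2 TPM) of the same structure lay below the subunit median in every library. MRPL44, whose fold resembles ribonuclease III, had 67.9, 69.4 and 69.8 TPM.

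In the small subunit no gene passed the quartile rule. Its levels were more spread, with quartiles of 41.0 and 114 TPM, against 81.8 and 147 TPM in the large subunit. The limits of the rule on average were therefore wider, at 8.23 and 523 TPM, against 33.7 and 352 TPM. MRPS24, the counterpart of bacterial protein S3 at the entrance of the messenger RNA, was highest with 359.0, 330.6 and 372.0 TPM. It overlaps an annotated read-through gene, URGCP-MRPS24, which was listed at 0, 0.72 and 0.45 TPM. MRPS15 had 237.8, 263.1 and 258.3 TPM, below all libraries of MRPS24 and above all of MRPS18B, the next small subunit gene. MRPS30 and MRPS21 (117.5, 120.3 and 124.1 TPM) completed the highest 5. RefSeq lists 9 pseudogenes named after MRPS21, the most of any member, and a read that fits a pseudogene equally well may have been placed at either. Of the 106 pseudogenes named after members, 0 were among the measured genes.

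The lowest small subunit genes after MRPS33 were MRPS23, MRPS17 (23.9, 24.3 and 23.2 TPM), MRPS25 and MRPS28 (39.0, 38.9 and 31.6 TPM). MRPS17, the counterpart of bacterial S17, had an implied length of 1737 bases and 524 reads on average, against a median implied length of 1168 bases over the members. MRPS12, part of the decoding centre, had 51.4, 53.9 and 63.9 TPM. The 3 related genes MRPS18A, MRPS18B and MRPS18C, whose proteins all resemble bacterial S18, differed: MRPS18B had 180.8, 187.4 and 185.6 TPM, MRPS18A 105.6 to 119.5 TPM, and MRPS18C 76.5, 76.4 and 72.8 TPM. Their libraries did not overlap.

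Further small subunit genes, several of them known from inherited deficiencies of the respiratory chain, are examples chosen after their values were seen. MRPS22 had 120.0, 124.4 and 114.2 TPM and MRPS7 104.3, 109.9 and 110.9 TPM, above the small subunit median in every library. MRPS2 (89.4, 96.8 and 101.4 TPM) and MRPS16 (95.1, 89.4 and 87.0 TPM) lay above it as well. MRPS34 (69.2, 67.8 and 77.4 TPM) lay on both sides of it, and MRPS14 (43.3, 42.3 and 39.8 TPM) below it. MRPS27, a pentatricopeptide repeat protein, had 114.6, 115.7 and 114.2 TPM, and among small subunit genes it had the highest number of reads (3950 on average), with an implied length of 2718 bases. MRPS5, at the entrance of the messenger RNA beside MRPS24, had 63.7, 68.0 and 70.4 TPM. Its implied length of 3282 bases exceeded its principal transcript in GENCODE v29 (1652 bases). Reads per that transcript gave 136 on a scale with the same total as TPM.

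Genes classed as bacterial-type had a higher median level than genes classed as mitochondria-specific, by an amount that depended on the measure. In the large subunit the class went by number, with genes up to MRPL36 as bacterial-type. In the small subunit it went by a fixed list of numbers. Homology was not examined, so a protein of higher number with a bacterial counterpart would count as mitochondria-specific. The median was 107.5, 108.6 and 117.8 TPM in replicates 1, 2 and 3 over 44 bacterial-type genes, against 92.0, 97.1 and 98.9 TPM over 34 mitochondria-specific genes. The log2 difference was 0.21 ± 0.05, and it was 0.56 with reads per shortest principal transcript and 0.35 with the mean over genes. The quartiles were 69.9 and 147 TPM for bacterial-type genes, against 61.1 and 132 TPM for mitochondria-specific genes. Here MRPS18C counts as bacterial-type and MRPS18A and MRPS18B as mitochondria-specific, although all 3 proteins resemble S18. MRPS36 also counts as mitochondria-specific, although it is now regarded as part of another complex. Within the large subunit the medians were 132 ± 6.31 TPM over 28 bacterial-type genes and 102 ± 6.21 TPM over 21 mitochondria-specific genes. Within the small subunit they were 73.9 ± 2.35 TPM over 16 and 71.5 ± 5.18 TPM over 13 genes, a difference within the spread between libraries.

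The 5 subunits that carry other names spanned much of the same range. DAP3, a GTP-binding protein of the small subunit first described in cell death, had 302.9, 303.8 and 297.9 TPM, between MRPS15 and MRPS24. AURKAIP1 had 155.0, 161.7 and 164.3 TPM and GADD45GIP1, at the tunnel exit of the large subunit, 86.9, 89.2 and 96.4 TPM. CHCHD1 had 54.7, 60.4 and 52.5 TPM. The pentatricopeptide repeat protein PTCD3 had 29.4, 29.4 and 27.3 TPM, with an implied length of 6634 bases and 2404 reads on average. With these 5 included, the large minus small difference was 0.76 on the log2 scale.

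Genes of factors that build or serve the mitochondrial ribosome had lower median TPM than genes of its proteins. Their implied lengths were longer, with medians of 2217 bases for assembly and 2507 bases for translation factors, against 1168 bases for the ribosomal proteins, and the median reads were 865 and 1168, against 1476. All 24 assembly factors were detected, with a median of 31.8 TPM ± 0.328, against 106 TPM ± 3.07 for the ribosomal proteins. Their range ran from the small subunit maturation factor RBFA at 4.16 TPM ± 0.225 to the RNA-binding protein GRSF1 at 89.5 TPM ± 2.76, and 0 of the 24 reached 100 TPM. All 17 translation factors were detected, with a median of 32.4 TPM ± 2.76. Of these, the elongation factor TUFM (355.4, 363.2 and 406.7 TPM), the messenger RNA stability factors SLIRP (342.1, 351.8 and 355.1 TPM) and LRPPRC (164.9, 148.3 and 136.2 TPM) exceeded 100 TPM on average.

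Cytosolic ribosomal protein genes stood far above the mitochondrial ones. The median was 106 TPM ± 3.07 over the 78 mitochondrial genes and 3272 TPM ± 52.6 over 79 cytosolic genes, a ratio of 30.8 for the cytosolic over the mitochondrial median of gene means. Of the 78 mitochondrial genes, 67 were below the lowest cytosolic gene, RPL14 at 173 TPM. Within each set the spread was similar: the upper quartile was 2.11 times the lower for mitochondrial and 2.29 times for cytosolic genes. Complex I, whose subunits are made partly on the mitochondrial ribosome, is represented here by 37 nuclear genes. They were taken by symbol alone (NDUF, then A, B, C, S or V and a number), and their place in the complex was not checked. These genes had a median of 176 TPM ± 2.39 and an upper quartile 3.21 times the lower. Their median implied length was 688 bases and their median reads were 1570, against 1168 bases and 1476 reads for the mitochondrial ribosomal protein genes. For the cytosolic genes these medians were 712 bases and 29953 reads. Many processed copies exist of cytosolic ribosomal protein genes, which can move reads among them.

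**Figure D3:**
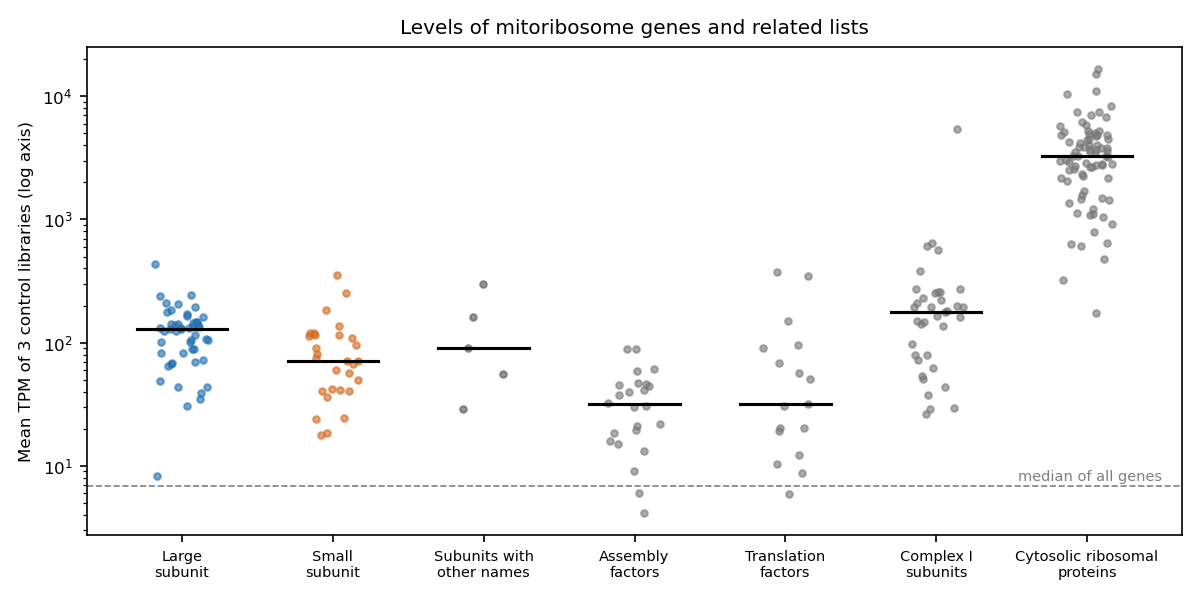
Mean TPM over the 3 control libraries (log axis) of each gene of the 2 subunits, the subunits with other names, assembly factors, translation factors, complex I and cytosolic ribosomal proteins, with the median of each list as a bar and the median of all genes as a dashed line. The members lie mostly between 30 and 250 TPM, and the medians of both subunits lie below that of the cytosolic set and above that of the assembly factors. Single genes of these lists overlap in level.

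The members varied little between libraries. The coefficient of variation had a median of 4.44% over the 77 members that averaged 10 TPM or more, against 6.11% over all 7577 genes of that level, and the 90th percentile was 9.17%, against 13.6%. Counting error alone, from the estimated reads, would give a median of 2.61% for these members, and 59 of the 77 (76.6%) varied by more than their own counting error, against 83.1% of all genes of that level. Related lists, at any level, had median coefficients of 2.30% (cytosolic ribosomal proteins), 4.17% (complex I), 5.25% (assembly factors) and 5.08% (translation factors). Of the members, MRPL27 varied most at 14%, with 89.2, 107.0 and 118.2 TPM, followed by MRPS28 (11.7%) and MRPS12 (11.7%). MRPL11, which lies at the base of the stalk, varied least at 0.344%, with 137.9, 138.6 and 138.8 TPM. That was less than its own counting error of 1.93%. Replicate 1 was the highest library for 33.3% of members, against 54.6% of all genes at 10 TPM, and replicate 3 for 39.7% of members, against 27.9%. In the order of all members by level, 13 of 77 neighbouring pairs had libraries that did not overlap, so most ranks next to each other cannot be told apart.

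**Figure D4:**
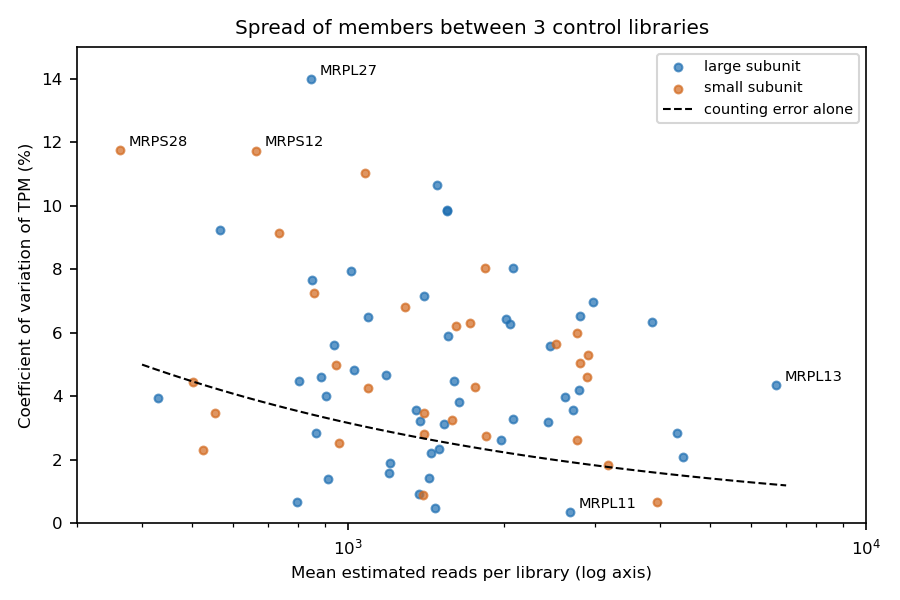
Coefficient of variation of TPM over 3 control libraries (%) of each member against its mean estimated reads (log axis), with the variation expected from counting alone as a dashed line. Most members lie above the line but under 10%, and MRPL27 is highest at 14%.

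Promoter sequences were compared as a feature that the choice of members did not use. RefSeq promoters (GRCh38.p14, 250 bases before to 50 after the start) were matched for 70 of the 78 members and for 13701 genes of the table. The ETS-type motif CCGGAAG, searched on both strands, was found in 29 of 70 member promoters (41.4%), against 15.9% of all 13701, 23% of the promoters of genes with at least 10 TPM and 15.6% of the 32 promoters of complex I genes. The NRF1-type motif GCATGCG was found in 7 (10.0%), against 5.61% of all, 7.42% of those with at least 10 TPM and 15.6% of complex I. The YY1-type motif AAGATGG was found in 23 (32.9%), against 6.61% of all, 9.28% of those with at least 10 TPM and 21.9% of complex I. In 16 of these members it lay on the gene strand after the start, where its letters ATG can be those of the start codon, which is 22.9% of the 70 member promoters, against 2.89% of all 13701. Of the 63 promoters of cytosolic ribosomal protein genes, 33.3% held the ETS-type motif, 7.94% the NRF1-type motif and 14.3% the YY1-type motif. Among members the shares were alike in both subunits, with the ETS-type motif in 17 of 42 large and 12 of 28 small subunit promoters. These matches are letters only and no binding was measured.

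The sequences below show where that motif sits. They are the 3 matched members with CCGGAAG in the last 80 bases before the start and no GENCODE v29 exon in that window, printed 5′ to 3′ on the gene strand up to the base before the start, with the motif in capitals. The windows are chr17:75012590-75012669 (plus strand) for MRPL58, chr6:43687792-43687871 (minus strand) for MRPS18A and chr13:40771191-40771270 (minus strand) for MRPS31.
MRPL58: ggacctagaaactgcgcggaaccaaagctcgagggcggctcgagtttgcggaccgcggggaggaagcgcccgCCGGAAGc
MRPS18A: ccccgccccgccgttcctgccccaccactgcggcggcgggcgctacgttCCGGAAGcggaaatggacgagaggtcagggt
MRPS31: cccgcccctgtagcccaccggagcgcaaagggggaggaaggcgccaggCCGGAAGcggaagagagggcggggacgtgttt
The motif begins 8, 31 and 32 bases before the start in MRPL58, MRPS18A and MRPS31, in each case on the gene strand. In MRPS18A and MRPS31 it is followed by a further GGAA in the same orientation. The levels of these genes differed, with 102 TPM ± 6.61 for MRPL58, 113 TPM ± 7.01 for MRPS18A and 40.5 TPM ± 3.70 for MRPS31.

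Some members start back to back with another gene. A start of another measured gene on the opposite strand within 1000 bases upstream was found for 18 of the 70 members (25.7%), against 11.2% of the 13701 genes, 16.4% of those with at least 10 TPM and 28.1% of the 32 complex I genes. MRPL46 and MRPS11, a large and a small subunit gene on chromosome 15, face away from each other with starts 320 bases apart. MRPL46 had 67.1, 66.9 and 67.8 TPM and MRPS11 41.7, 35.9 and 44.8 TPM, so the pair did not overlap in level. Among the other partners were FAU, a cytosolic ribosomal protein gene 49 bases from MRPL49, and SARS2, the mitochondrial seryl-tRNA synthetase gene 181 bases from MRPS12.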

How the data were processed

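RNA of NCI-H69 was enriched for poly(A), made into libraries that keep the strand and sequenced on a DNBSEQ-T7, per the labels' protocols. HISAT2, StringTie, DESeq2 and the build GRCh38 are listed per the submitters' processing notes, with neither version nor role. The authors deposited TPM, FPKM and estimated counts per gene and library, per the file headers. Sources used here do not state the annotation release or the gene lengths. Columns were matched to samples by the names in the labels; 12 value columns with another prefix matched no sample and were not used.

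Levels were computed with Python 3.11.15, pandas 2.3.3, numpy 2.4.6 and matplotlib 3.10.9. The median over genes of log2(TPM + 1) was taken per library. Implied length was estimated reads divided by FPKM and by the library's total reads, times 1000000000; over 2392 genes with a single coding transcript its median ratio to the annotated length was 0.967. Principal transcripts are those that GENCODE v29 marks as such. Pairs of libraries differed by more than sampling noise (chi-square per degree of freedom of at least 6.19). The labels call the samples biological replicates without saying how separate the cultures were. Named in full were the 5 highest and 5 lowest genes of each subunit, outlying genes, MRPS18 genes, genes misnamed by subunit, the 3 most variable genes and the 5 subunits with other names; others were chosen after their values were seen. Members and lists were chosen with earlier results of these data known. Alternatives were FPKM, estimated reads, other lengths, filters and pseudocounts, and leaving out each library.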

Additional observations from a re-analysis of the deposited data

How the results depend on the processing

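No paired analysis was possible because knockout samples matched 0 columns of the table. The large minus small difference (0.77 on the log2 scale) was 0.0397 with estimated reads, 0.68 with reads per shortest principal transcript, 0.32 with reads per coding length and 0.59 with the mean over genes, and 0.75 to 0.82 without each library. FPKM, TPM without cytosolic ribosomal protein and MTRNR2L genes, a pseudocount of 0.1, a minimum of 10 TPM and both other memberships moved it by less than the spread between libraries. The bacterial-type minus mitochondria-specific difference (0.21) was 0.56 with reads per shortest principal transcript, 0.35 with the mean over genes and 0.13 with members of at least 10 TPM, and 0.19 to 0.24 without each library. All 78 members stayed detected at 5 TPM and at 10 reads. Outlying members numbered 2, but 0 with estimated reads and 0 with the shortest principal transcript; with coding length they were MRPL13 and MRPL39. The median coefficient of variation (4.44%) was 2.76% to 4.90% without each library, and lowest without replicate 3.

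Relative to the median member (log2), 16 of 175 values for named genes changed side. MRPL27 (-0.02) did so by less than the spread between libraries, at 0.06 without replicate 1. With estimated reads MRPL53 was at -0.31, MRPL42 at 0.16 and MRPL19 at 1.40. With the shortest principal transcript MRPL53 was at -0.26, MRPS33 at 0.18, MRPL42 at 0.55 and MRPL19 at 1.55. With coding length MRPS30 was at -0.33, MRPS25 at 0.0233, MRPS33 at 0.17, MRPL50 at 0.20, MRPS36 at 0.22, MRPS18C at 0.31, MRPL42 at 0.53 and MRPL19 at 0.73. For these 15 values the alternatives differ only in the length by which reads are divided. With estimated reads, MRPL22 (-0.28), MRPS23 (-0.18), MRPS25 (-0.07) and MRPL50 (-0.01) came near the median member without changing side. With TPM these lay at -1.76, -2.47, -2.07 and -1.58. MRPS12 (-1.15), MRPL39 (-1.37), MRPS17 (-1.48) and MRPS28 (-2.01) stayed further below with estimated reads. The alternatives with annotated lengths were chosen after seeing the data. Members had 363 to 6694 mean reads per library.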
